A study of Mus musculus with 17 samples.

Results

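The genes described here are 10 of the 23362 genes in the RNAseq count table, namely *Robo4* and 9 other genes that mark endothelial cells (*Pecam1*, *Icam2*, *Plvap*, *Ctla2a*, *Kazald1*, *Cdh5*, *Tie1*, *Tek* and *Esam*). They were taken by gene name. *Robo4* was chosen because earlier work on these same libraries had shown it higher in N than in WT, so its values in every comparison that holds N or WT are given as a description with no test, and only TAT against TM was tested for it. Counts of calls are over the other 9 genes. The study used *Pecam1*, *Icam2*, *Kazald1* and *Ctla2a* as endothelial transcripts of these libraries and described them as raised in TAT and TM, so their values there are not independent evidence of a direction. The question asked of the data was whether *Robo4* follows the other endothelial genes from WT through N and TAT to TM.

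RNA was sequenced from testes of adult mice of strain C57/Bl6, 3 *Inha* WT and 3 *Inha* KO animals. The KO animals lack the inhibin alpha subunit in the whole body and form somatic cell tumours in the testis. WT tissue was testis tubules, 1 library from each of animals 79783, 79811 and 79852. The KO testes were dissected into tubules far from any tumour (N, 4 libraries), tubules at the tumour with the interstitium beside them (TAT, 4 libraries) and tumour (TM, 6 libraries). KO animals 79781 and 79853 gave 1 library of each region, whereas animal 79813 gave N and TAT from both testes, 1 tumour of testis 1 and 3 tumours of testis 2. No agent was given to any group. The age is postnatal day 48 to 52 in the sample labels and 53 to 55 in the dissection protocol. TAT and TM were recognised during dissection by their rich blood supply, so the regions were picked by a trait of the tissue that these genes mark.

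Endothelial cells line blood and lymph vessels. They hold to one another through VE-cadherin (*Cdh5*), PECAM-1 and ESAM, they take up angiopoietin signals through the receptor Tie2 (*Tek*) with its partner *Tie1*, and in some organs they carry fenestrae closed by diaphragms of PLVAP. ROBO4 is the roundabout receptor of endothelial cells. It differs from the neuronal roundabout receptors in having a shorter extracellular part, it can bind the netrin receptor UNC5B, and it is known for keeping vessels from leaking and from sprouting. In the testis the vessels lie in the interstitium between the tubules. The WT libraries held interstitial RNA, with genes of Leydig cells, the steroid-making cells of the interstitium, at 2717 to 5623 CPM (counts scaled to library size) when summed over 8 genes.

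Positions are those of GENCODE M21 on GRCm38. *Robo4* (ENSMUSG00000032125) lies on chromosome 9 from 37401897 to 37415115 on the plus strand, and *Esam*, the cell-selective adhesion molecule of endothelium, lies on the same strand of that chromosome at 37528078 to 37538319. *Pecam1* and *Icam2* lie on chromosome 11, *Tie1* and *Tek* on chromosome 4, *Plvap* and *Cdh5* on chromosome 8, *Ctla2a* on chromosome 13 and *Kazald1* on chromosome 19.

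The upstream sequences of 3 of the genes are shown because *Robo4* is the gene the results turn on, *Tek* rose in TM with the others, and *Kazald1* was, like *Robo4*, highest in TAT. RefSeq promoters of GRCm38.p6 matched 5 of the 10 genes (*Robo4*, *Tie1*, *Tek*, *Ctla2a* and *Kazald1*). Of the 250 bases before the RefSeq start of each of the 3, those also upstream of the GENCODE gene are given, 5′ to 3′ on the strand of the gene. The letters CGGAAG and AGGAAG, the core of sites for ETS transcription factors, which many endothelial genes carry, are in capitals where they occur on either strand.
*Robo4*, chr9:37401722-37401896, plus strand: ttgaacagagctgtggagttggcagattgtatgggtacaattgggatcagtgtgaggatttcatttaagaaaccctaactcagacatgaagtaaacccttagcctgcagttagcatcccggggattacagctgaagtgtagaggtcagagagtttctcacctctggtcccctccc
*Tek*, chr4:94739039-94739288, plus strand: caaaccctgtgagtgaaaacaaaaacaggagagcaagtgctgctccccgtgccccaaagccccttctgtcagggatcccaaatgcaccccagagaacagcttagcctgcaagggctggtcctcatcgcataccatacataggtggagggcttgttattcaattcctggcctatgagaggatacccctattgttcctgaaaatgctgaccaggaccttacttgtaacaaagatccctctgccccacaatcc
*Kazald1*, chr19:45074991-45075240, plus strand: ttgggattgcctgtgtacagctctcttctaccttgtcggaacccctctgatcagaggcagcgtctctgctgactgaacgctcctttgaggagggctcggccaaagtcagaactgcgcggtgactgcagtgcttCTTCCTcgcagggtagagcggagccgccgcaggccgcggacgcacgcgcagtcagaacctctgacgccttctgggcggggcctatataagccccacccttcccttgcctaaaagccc

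None of the 175 bases printed for *Robo4* held either form of the core. The RefSeq window of *Robo4* ran 75 bases further, into the GENCODE gene, and held 1 AGGAAG that began at base 27 of it. The *Tek* window held none, and the *Kazald1* window held 1 AGGAAG on the minus strand. Counting every start site, 4 of the 7 windows of the matched genes held a core, against 39.2% of 32851 promoters of the same length. A match of letters is a description and not a binding site.

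Levels are CPM after TMM scaling, which corrects for library composition. Libraries of one region of an animal were summed, so that each group has n = 3 animals. Summed totals were 6349355 to 65236050 counts, and the shallowest was WT animal 79783. *Inha*, the removed gene, was at 65.9 ± 4.08 CPM (SD, n = 3) in WT and its mean was 0.966 CPM in N, 1.57 in TAT and 4.23 in TM. Spermatid genes, summed over 10 genes, fell from 27714 to 34015 CPM in the WT animals to 498 to 3671 CPM in TM, and red cell genes, summed over 6 genes, lay at 386 to 571 CPM in WT and 19215 to 49001 CPM in TM. The tests below are edgeR's quasi-likelihood test, and a gene counts as called, or as having risen or fallen, where its adjusted p is under 0.05 with more than a 1.5-fold change. Nothing in the sources used here says that the animals were littermates or handled on separate days. For comparisons with WT the spread was taken over all 12 summed libraries. There the regions of a KO animal entered as separate libraries, although they are not independent. Between KO regions it was the spread left after differences between animals were taken out. Each group still rests on 3 animals.

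*Robo4* was almost without counts in WT and well measured in every KO region. The WT libraries held 0, 1 and 1 counts, which are levels of 0, 0.0331 and 0.0477 CPM in animals 79783, 79811 and 79852. The level in N was 7.18, 3.65 and 10.6 CPM in KO animals 79781, 79813 and 79853. In TAT it was 7.81, 5.99 and 10.4 CPM in the same order, and in TM it was 6.58, 6.80 and 4.33 CPM. Every KO sample thus lay far above every WT sample, while the 3 KO regions overlapped one another. In bulk tissue a change in the number of cells of a type and a change in RNA per cell cannot be told apart.

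The mean level of *Robo4* in CPM (± SD, n = 3) was 0.0269 ± 0.0244 for WT, 7.16 ± 3.49 for N, 8.06 ± 2.20 for TAT and 5.90 ± 1.37 for TM. TAT was thus highest, then N, TM and WT, and neighbours among the KO regions did not differ beyond the spread of the animals. The counts summed over a group were 2 in WT, 724 in N, 636 in TAT and 584 in TM. With the library sizes the ratio to WT was 180 for N, 210 for TAT and 181 for TM. Each ratio rests on the 2 counts of WT, so its size is uncertain. All 3 ratios share the WT libraries that chose the gene and are a description. A count of 0 in WT animal 79783, the shallow library, allows a level of up to 0.530 CPM (3 counts), which is below all 9 KO values.

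The pieces of KO animal 79813 show how *Robo4* varied within an animal. N was at 3.41 CPM in testis 1 and 3.996 CPM in testis 2, and TAT at 5.23 and 6.70 CPM. The tumour of testis 1 was at 5.18 CPM and the 3 tumours of testis 2 at 10.5, 5.96 and 4.45 CPM. The testes were close to each other in N and TAT, and the tumours ran from 4.45 to 10.5 CPM. KO animals 79781 and 79853 gave 1 tumour library each (6.90 and 4.56 CPM), so they have no such range within an animal.

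**Figure D1:**
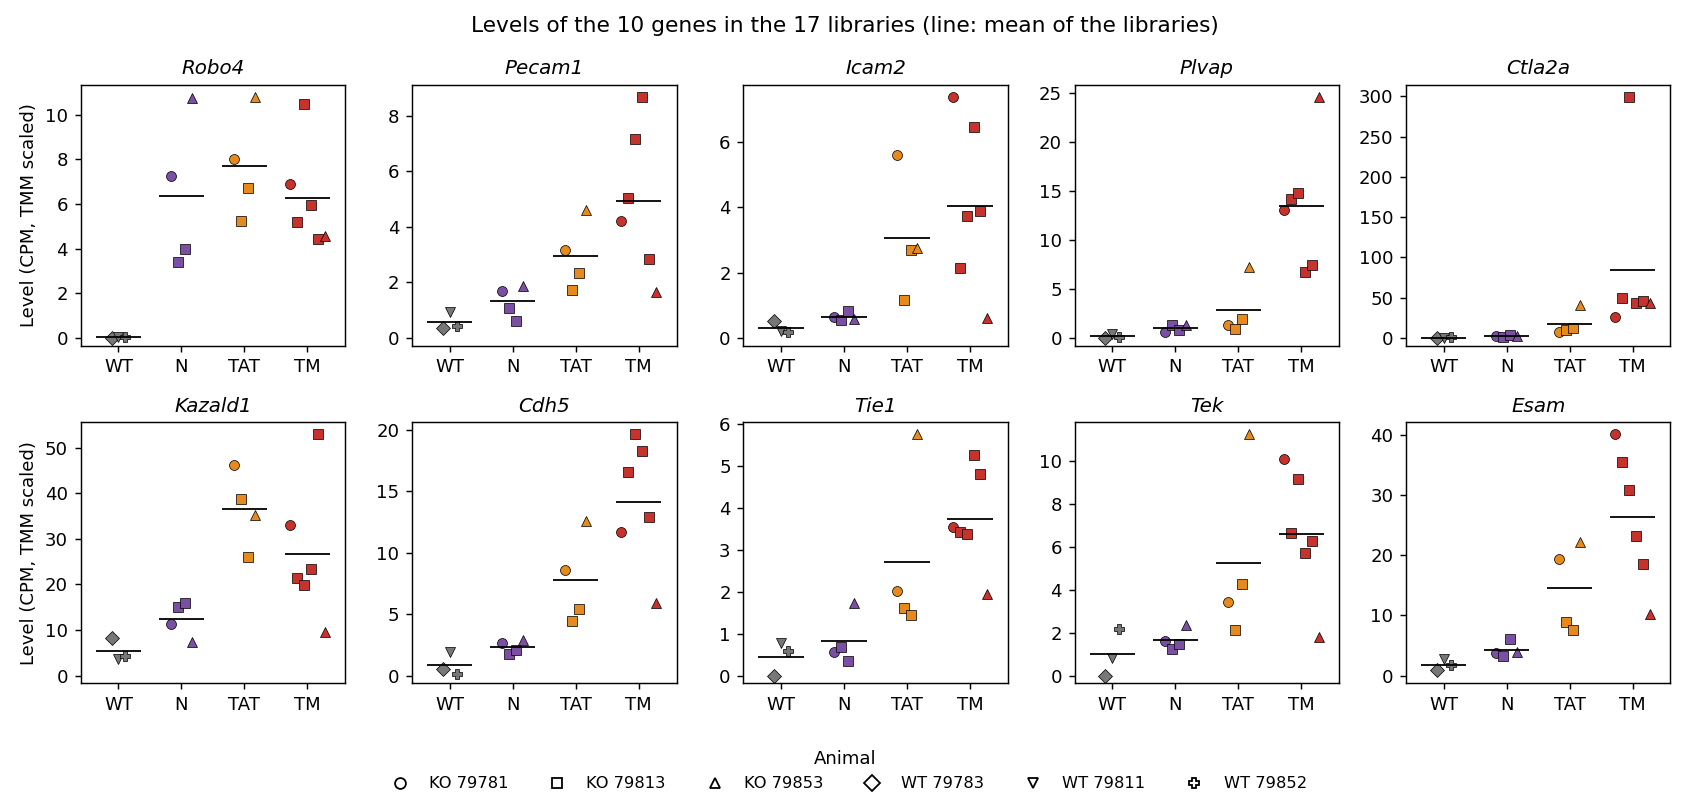
Levels in CPM (vertical axes, each gene on its own scale from 0) of the 10 genes in the 17 libraries by group, with a symbol for each animal and a line at the mean of the libraries. *Robo4* was near 0 in the WT libraries and between 3.41 and 10.8 CPM in the libraries of all 3 KO regions, while for each of the other 9 the mean was higher in TAT and in TM than in N, with single libraries that overlapped.

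The other 9 genes had some counts in WT, and their estimates were higher in N without passing the test. *Cdh5*, the cadherin of endothelial junctions, was at 0.530, 1.92 and 0.143 CPM in WT and at 2.62, 1.90 and 2.86 CPM in N. *Esam* was at 0.884, 2.81 and 1.72 CPM in WT and at 3.66, 4.54 and 3.95 CPM in N. *Ctla2a*, an inhibitor of cathepsin-like proteases, was at 0, 0.628 and 1.19 CPM in WT and at 2.71, 2.67 and 3.11 CPM in N. For *Esam* and *Ctla2a* every N sample was above every WT sample, whereas for *Cdh5* the groups overlapped by a narrow margin.

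In N against WT none of the 9 genes was called, where the test called 0.0404% of 19791 genes. All 9 estimates were above 0, with a median log2 fold change of 1.16 (0.71 for *Tek* to 2.04 for *Plvap*) beside a median of 0.03 over all genes tested. At an unadjusted p under 0.05 there were 3 of the 9 (*Plvap*, *Ctla2a* and *Kazald1*), beside 1502 of the 19791 genes tested. Neither DESeq2 nor limma-voom called any of those 3. The N and WT animals did not overlap for 4 of the 9 genes (*Icam2*, *Plvap*, *Ctla2a* and *Esam*), where 12.3% of all genes tested were higher in N without overlap. The fitted value of *Robo4* in this comparison, which chose it, was 7.52 on the log2 scale, far above the highest of the 9.

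From WT to TAT, 7 of the other 9 genes rose and the remaining 2, the Tie receptors, missed the threshold. The 7 include *Pecam1*, *Icam2*, *Kazald1* and *Ctla2a*, which the study had described as raised here. The rest of the 7 were *Plvap*, *Cdh5* and *Esam*. The test called 19.0% of all genes in this comparison and 14.4% as higher. The median log2 fold change of the 9 was 3.08 (2.38 to 4.73), beside 0.07 over all genes. *Ctla2a* rose by 4.73 (SE 0.85, adjusted p = 0.00345), *Plvap* by 3.74 (SE 0.90, adjusted p = 0.0142) and *Icam2*, an adhesion molecule that leukocytes bind, by 3.54 (SE 0.94, adjusted p = 0.0212). *Tie1* had 2.55 (SE 0.96, adjusted p = 0.0805) and *Tek* 2.43 (SE 0.94, adjusted p = 0.0892). TAT and WT did not overlap for any of the 9 genes, as for 26.0% of all genes.

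The TAT calls against WT leaned on single animals. Of the other 9 genes 7 were called with every animal, 3 without KO animal 79781 and 4 without WT animal 79852. *Pecam1* (adjusted p = 0.0386), the adhesion molecule CD31, was lost whenever any one of animals 79781, 79783, 79852 or 79853 was left out, with adjusted p of 0.161, 0.0945, 0.122 and 0.113. *Plvap* was lost without animal 79781 (0.0541), 79852 (0.0623) or 79853 (0.0797), *Icam2* without 79781 (0.148), 79811 (0.0774) or 79852 (0.0830), and *Cdh5* without 79781 (0.0956). *Ctla2a*, *Kazald1* and *Esam* stayed called with any animal left out.

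From WT to TM all 9 genes rose, with a median log2 fold change of 3.63 (2.21 for *Kazald1* to 6.37 for *Ctla2a*) beside -0.07 over all genes. Those the study had already described as raised here are *Pecam1*, *Icam2*, *Kazald1* and *Ctla2a*. The rest were *Plvap*, *Cdh5*, *Tie1*, *Tek* and *Esam*. The test called 58.4% of all genes here, 27.8% as higher. *Ctla2a* was at 25.1, 113 and 41.6 CPM in TM of animals 79781, 79813 and 79853. *Plvap*, which forms the diaphragms of fenestrae, was at 0, 0.463 and 0.0954 CPM in WT and at 12.5, 10.8 and 23.3 CPM in TM, a log2 fold change of 6.003 (SE 0.97, adjusted p = 0.000313). *Tie1* and *Tek* had the weakest calls, with adjusted p of 0.0300 and 0.0360. Leaving out KO animal 79781 ended both calls, with adjusted p of 0.0872 for *Tie1* and 0.157 for *Tek*, and so did leaving out WT animal 79783 (0.0526 and 0.0629) or KO animal 79813 (0.0856 and 0.0751). Without WT animal 79811 *Tek* was lost (0.104), and without WT animal 79852 *Tie1* (0.0689). TM and WT did not overlap for 8 of the 9 genes, *Tek* being the exception, and for 30.9% of all genes.

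**Figure D2:**
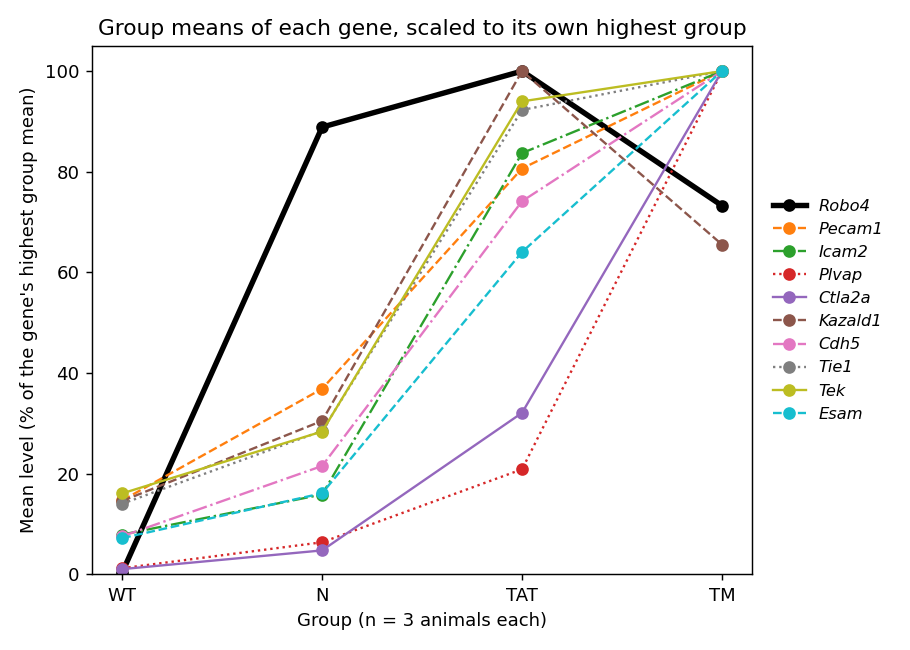
Mean level of each gene in the 4 groups (n = 3 animals each) as a percent of its own highest group mean, with *Robo4* as the thick black line. *Robo4* stood at 88.9% of its highest mean in N, where the other 9 genes stood at 4.74% to 36.9%.

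Within the KO animals the level of *Robo4* was spread over the regions in another way than that of the other 9 genes. No WT library enters here, but the N libraries do, in which *Robo4* was chosen for being high, so its values against N are a description. Scaled to its own highest group mean, *Robo4* had reached 88.9% in N. The other 9 had reached 4.74% (*Ctla2a*) to 36.9% (*Pecam1*) there. The mean of *Robo4* was thus nearly as high in N as in TAT, while each of the rest had a TAT mean well above its N mean, with *Kazald1* and *Robo4* highest in TAT and the other 8 highest in TM.

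From N to TAT the estimate for *Robo4* was a log2 fold change of 0.24 (SE 0.45), and it was higher in 2 of 3 animals. For the other 9 the estimates ran from 1.16 (*Pecam1*) to 2.52 (*Ctla2a*) with a median of 1.80, beside 0.03 over all genes, and each of the 9 was higher in TAT in 3 of 3 animals. None of the 9 was called, where edgeR called 0% of 19293 genes at the adjusted threshold and 4517 genes had an unadjusted p under 0.05. Of the 9 genes 6 had an unadjusted p under 0.05. DESeq2 called 5 genes (*Icam2*, *Ctla2a*, *Kazald1*, *Cdh5* and *Esam*) and limma-voom 1 (*Kazald1*). The share of all genes that those methods called was not taken, so these counts have no background beside them. TAT and N did not overlap for 7 of the 9 (not *Plvap* and *Tie1*), against 22.0% of all genes.

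*Kazald1*, a secreted protein with a Kazal-type inhibitor domain and an insulin-like growth factor binding domain, shows the difference animal by animal. It was at 11.1, 15.2 and 7.28 CPM in N and at 45.1, 31.5 and 33.9 CPM in TAT of animals 79781, 79813 and 79853. *Esam* was at 18.9, 8.11 and 21.3 CPM in TAT, above all its N values. Animal 79853 had the highest *Robo4* of N and of TAT, and it was also the animal with the highest TAT level of *Pecam1*, *Plvap*, *Ctla2a*, *Cdh5*, *Tie1*, *Tek* and *Esam*.

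From N to TM *Robo4* had a log2 fold change of -0.09 (SE 0.46), higher in 1 of 3 animals. Its sign was not stable, being 0.21 with pieces as replicates, 0.06 with limma-voom, 0.07 with total library size and 0.56 without KO animal 79853. Of the other 9 genes 7 rose, where 53.5% of all genes were called and 24.9% as higher. The 7 ran from 1.06 (*Kazald1*, adjusted p = 0.0450) to 4.29 (*Ctla2a*, adjusted p = 0.00195). *Pecam1* (1.55, SE 0.76, adjusted p = 0.118) and *Tek* (1.99, SE 0.81, adjusted p = 0.0704) missed the threshold.

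Single animals weighed on the TM against N calls too. Without KO animal 79781 only *Plvap* and *Ctla2a* of the members stayed called, 2 in all. Without animal 79813 the members called were 3 in all (*Plvap*, *Ctla2a* and *Esam*), and without animal 79853 *Pecam1* and *Tek* were called too (adjusted p = 0.0309 and 0.00493). TM and N did not overlap for 5 of the 9 genes (*Plvap*, *Ctla2a*, *Cdh5*, *Tie1* and *Esam*), against 30.8% of all genes. The tumour of animal 79853 stood low for several of the others, with *Icam2* at 0.590 CPM against 7.04 and 4.47 CPM in the tumours of animals 79781 and 79813.

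Between TM and TAT *Robo4* had a log2 fold change of -0.32 (SE 0.46, 95% interval -1.38 to 0.73, adjusted p = 0.628). Only *Plvap* was called among the 10 genes, with a rise of 2.60 (SE 0.51, adjusted p = 0.0164), where the test called 25.3% of all genes and 7.65% as higher. *Plvap* was at 1.27, 1.48 and 6.99 CPM in TAT, so that it was the single gene whose TM animals all lay above its TAT animals, against 18.0% of all genes. Its call was lost without KO animal 79781 (adjusted p = 0.215), while without KO animal 79853 *Ctla2a* and *Esam* were called as well (adjusted p = 0.00713 and 0.0282). The remaining 8 genes ran from -0.76 (*Kazald1*) to 1.76 (*Ctla2a*).

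**Figure D3:**
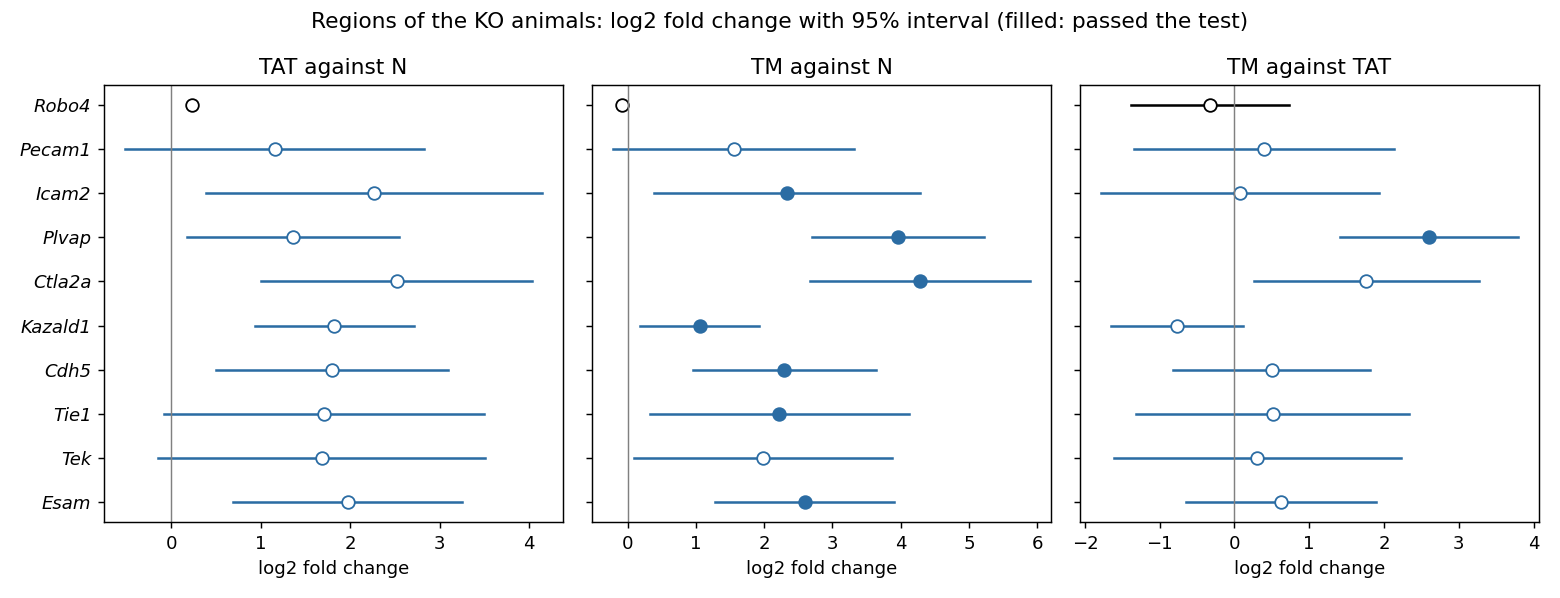
Log2 fold changes (horizontal axes) between regions of the 3 KO animals for the 10 genes, with 95% intervals of the edgeR fit and filled points for genes that passed the test. *Robo4*, which was not tested against N, has no interval in those panels. *Robo4* lay at 0.24, -0.09 and -0.32 in the 3 panels, and in TAT against N and TM against N every other gene had a higher estimate.

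The comparison can be made inside each library, where the scaling cancels, although the low counts of WT leave its value there dependent on the prior count. With log2 CPM at a prior count of 2, *Robo4* minus the mean of the other 9 genes was -2.74 ± 0.62 in WT, 1.73 ± 0.62 in N, 0.29 ± 0.28 in TAT and -0.67 ± 0.44 in TM (SD, n = 3). It ran from 1.02 to 2.20 in N, from -0.03 to 0.49 in TAT and from -1.01 to -0.17 in TM, so that the regions did not overlap. It was lower in TAT than in N, and lower in TM than in TAT, in all 3 animals. The members were chosen with results known, and *Robo4* on its N libraries, so this is a description with no test.

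In animal 79781 *Robo4* moved by 0.12 on the log2 scale from N to TAT while the mean of the other 9 moved by 1.67. In animal 79813 it moved by 0.70 against 1.23, and in animal 79853 by -0.04 against 2.20. All 9 genes moved further up than *Robo4* in animals 79781 and 79853, and 8 of 9 did in animal 79813. From N to TM all 9 moved further up in all 3 animals, the *Robo4* change being -0.13, 0.88 and -1.29. From TAT to TM 8 of 9 did so in animals 79781 and 79813 but 4 of 9 in animal 79853, where the mean of the 9 itself fell by 1.11.

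**Figure D4:**
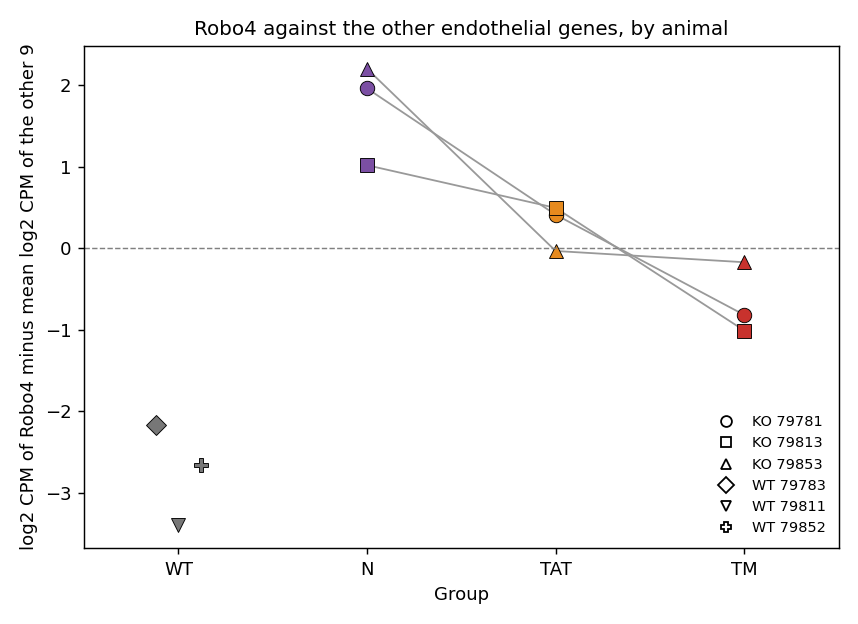
Difference in log2 CPM between *Robo4* and the mean of the other 9 genes (vertical axis) by group, with a symbol for each animal and lines joining the regions of a KO animal. The difference lay at -3.40 to -2.17 in WT, was highest in N at 1.02 to 2.20, and was lower in TAT and lower again in TM in all 3 KO animals.

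Genes were ranked by how closely their levels over the 12 summed libraries followed those of *Robo4*, as the root mean square difference of log2 CPM after each gene's own mean was removed. Among 16459 genes with a mean of at least 1 CPM the nearest were *Clca3a2* (0.89), *Pianp* (0.97), *Ntf5* (0.98), *Hspb8* (1.02) and *Zfp46* (1.06). *Clca3a2* had means of 0.0220, 1.64, 2.91 and 2.52 CPM in WT, N, TAT and TM. *Hspb8*, a small heat shock protein, had 0.141, 2.42, 10.01 and 7.53 CPM. None of the 5 is among the endothelial lists used here. The nearest of the other 9 endothelial genes was *Cdh5*, at rank 188 (1.69), and the farthest *Icam2*, at rank 1056 (2.05). The ranking holds the WT and N libraries that chose *Robo4*. The 5 nearest genes were likewise near 0 in WT, with means of 0.0110 to 0.154 CPM. The ranks thus follow in part from that choice and are a description with no test.

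A rule chosen after the values were seen asked for genes with at most 3 counts in the WT libraries together and at least 1 CPM in all 9 KO summed libraries. It held for 1 of 23362 genes, *Robo4*. That gene had been chosen on these WT and N libraries, so its place under the rule was built in and is a description. With at most 5 WT counts it held for 4 genes (*Rab33a*, *Rgs13*, *Robo4* and *Socs3*), and with at most 20 for 17. With at most 3 WT counts and at least 0.5 CPM it held for 4 (*Defb42*, *Pianp*, *Robo4* and *Spink13*). No other of the 10 genes met these rules. With at most 20 WT counts and at least 0.5 CPM the rule held for 78 genes, 3 of them among the 10 (*Robo4*, *Icam2* and *Plvap*).

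Within 200000 bases of *Robo4* 12 other genes had a row in the table, and no annotated gene overlapped it. Of the 11 tested, none was called in N against WT, where 0.0404% of all genes were. Against WT, *Esam* alone of the 11 rose in TAT, where 14.4% of all genes rose. In TM *Esam* and *Siae* (log2 0.98, adjusted p = 0.00315) rose, and *Ccdc15*, *Hepacam* and *Spa17* fell. There 58.4% of all genes were called and 27.8% as higher, so the neighbours did not stand out. *Robo3*, a roundabout receptor of neurons, lies 553 bases beyond its end on the minus strand and had means of 0.117, 0.277, 0.662 and 0.640 CPM in WT, N, TAT and TM. Upstream, *Hepacam*, a cell adhesion molecule of glia, had 12.1, 12.2, 9.68 and 2.17 CPM. The sources used here do not say whether the counting used strand.

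Sequence shared with other genes could move a count only for a few of the 10. None of the 5432 words of 50 bases in the *Robo4* transcripts occurs in a transcript of another gene. For *Ctla2a* it was 25.5% of its words, 18.2% shared with *Gm49391* and 11.4% with its paralog *Ctla2b*, so its counts are less certain. *Ctla2b* was at 0.302, 0.239, 0.300 and 3.23 CPM in WT, N, TAT and TM. *Pecam1* shared 0.998% and *Tie1* 0.121%, and the others none.

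A list of 39 other endothelial genes was also counted, and within the KO animals it was less uniform than the 9. From N to TAT 31 of the 39 estimates were above 0 (median 1.43, lowest -2.25) and none was called, by edgeR. An unadjusted p under 0.05 was found for 13, beside 4517 of 19293 genes tested. The 8 estimates not above 0 were all below the 0.24 of *Robo4*. Among them were *Flt1* (-0.01), *Vwf* (-0.18), *Sox7* (-0.27) and *Sox17* (-0.41), named after their values were seen. From N to TM 14 rose and 1 fell, where 24.9% of all genes rose, and 6 estimates lay below that of *Robo4*. The N mean was at least 88.9% of the highest group mean for 3 of the 39 (*Vwf*, *Sox17* and *Arhgef15*). A level without a rise from N to TAT was thus seen in other genes of the list too. Those 3 had 209 to 1521 counts in WT, against the 2 of *Robo4*, and of the 39 only *Aplnr* had at most 3. *Sox17* and *Arhgef15* had means of 16.0 and 23.7 CPM in WT, above each of the other 9 genes, and 8.13 and 7.80 CPM in TM. Which cells of the testis their RNA came from was not tested. In N against WT none was called, by edgeR, and 8 had an unadjusted p under 0.05, beside 1502 of 19791 genes tested. There 23 of 39 estimates were above 0, with a median of 0.33. In TAT against WT 12 rose and none fell (median 1.49), and in TM against WT 17 rose and 3 fell (median 1.94), where 14.4% and 27.8% of all genes rose. Among those that rose were *Cd34*, a sialomucin of endothelium and progenitors, from 9.72 ± 1.35 CPM in WT to 46.8 ± 24.6 CPM in TM (log2 2.27, adjusted p = 0.000480), and *S1pr1*, the receptor for sphingosine 1-phosphate, from 0.588 ± 0.0669 to 11.03 ± 6.48 CPM (log2 4.20, adjusted p = 0.000558). *Ecscr* and *Thbd* (thrombomodulin) rose by 3.88 and 3.25. The 3 that fell were *Arhgef15* (-1.59), *Cyyr1* (-1.98) and *Notch4* (-1.48), all of them measured in WT, where *Arhgef15* was at 23.7 ± 6.92 CPM. Most defining endothelial genes were thus measured in all regions, and the list was at 114 to 146 CPM in WT when summed.

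Lymphatic endothelium was measured thinly. Of 5 genes tested, *Lyve1* and *Pdpn* (40%) rose in TAT and in TM, beside 14.4% and 27.8% of all genes. *Prox1*, the transcription factor that sets lymphatic identity, fell by 2.92 in TM (SE 0.71, adjusted p = 0.00377). Its means were 7.19, 5.98, 3.26 and 0.940 CPM in WT, N, TAT and TM. Which cells of the testis the *Prox1* RNA came from was not tested. *Lyve1* had no counts in the 3 WT animals, and in N it was at 0, 0.323 and 1.31 CPM, which overlapped WT. *Mmrn1* was also at 0 in WT.

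Among partners of the roundabout receptors (15 genes tested), none was called in N, and 1 had an unadjusted p under 0.05, beside 1502 of 19791 genes tested. In TAT 2 genes (13.3%) rose, *Robo2* and *Slit3*, and *Git1* fell. In TM 4 genes (26.7%) rose, *Robo2*, *Slit3*, *Robo1* and *Arf6*, while *Git1* and *Srgap1* fell, with *Robo1* and *Arf6* named after their values were seen. These shares are close to the 14.4% and 27.8% of all genes that rose. *Robo2*, a neuronal guidance receptor, was at 0, 1.36 and 0.143 CPM in WT and at 27.6, 17.7 and 88.6 CPM in TM (log2 6.14, SE 1.22, adjusted p = 0.00110). *Slit3*, a ligand, was at 1.41, 1.22 and 1.62 CPM in WT, 3.27, 2.53 and 4.05 CPM in N and 7.22, 7.26 and 2.56 CPM in TM (log2 2.00, adjusted p = 0.00582). *Unc5b*, the partner of ROBO4, was at 1.77, 0.694 and 0.430 CPM in WT and at 0.172, 0.238 and 1.09 CPM in N, and it too is named after its values were seen. Neither *Slit3* nor *Unc5b* was near 0 in WT in the way *Robo4* was.

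Among ligands and effectors of the Tie receptors (9 genes tested), none was called in N or had an unadjusted p under 0.05, 2 rose in TAT (22.2%) and 5 in TM (55.6%), beside 14.4% and 27.8% of all genes. *Angpt2*, the ligand that loosens vessels, was at 2.83, 1.75 and 2.39 CPM in WT, 1.38, 2.45 and 0.840 CPM in N and 62.6, 46.8 and 9.31 CPM in TM (log2 4.12, SE 0.78, adjusted p = 0.000797). *Foxo1*, a transcription factor held down by Tie2 signals, had the smallest p of the list, at 8.70 ± 3.21 CPM in WT and 269 ± 68.9 CPM in TM. Of 11 partners of endothelial junctions 6 (54.5%) rose in TAT and 6 in TM, among them *Jam2* (2.22 in TM) and *Cd99l2* (2.53 in TM), and *Jup*, plakoglobin, fell by 1.39 in TM.

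Genes of other cell types moved with the same regions. Of 11 pericyte and vascular smooth muscle genes 4 rose in TAT (36.4%) and 7 in TM (63.6%), beside 14.4% and 27.8% of all genes, and their sum was 86.1 to 120 CPM in WT, 178 to 216 CPM in N and 509 to 1829 CPM in TM. Of 9 macrophage genes 5 rose in TAT (55.6%) and 7 in TM (77.8%). Their sum was 53.4 to 57.6 CPM in WT and 62.1 to 79.1 CPM in N. Red cell genes were at 566 to 576 CPM in N, close to WT. The summed level of the 9 endothelial genes lay between 10.4 and 12.3 CPM in WT, 25.0 and 28.8 in N, 65.7 and 137 in TAT, and 94.98 and 223 in TM.

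The sum of 8 Leydig cell genes went from 2717 to 5623 CPM in WT to 521 to 578 CPM in N, 737 to 1654 CPM in TAT and 2571 to 3404 CPM in TM, and none of the N animals overlapped WT. Most of it in WT was *Insl3*, a hormone of mature Leydig cells, at 3176 ± 1713 CPM. Its mean in N was 284 ± 31.3 CPM, a log2 difference of -3.48 that missed the threshold (adjusted p = 0.127). In TM it fell by 5.09 on the log2 scale. Steroid enzyme genes went both ways, as *Cyp11a1* and *Hsd3b1* rose in TAT and TM while others fell. *Cyp17a1* fell in N (log2 -4.16, adjusted p = 0.0496), TAT (-3.55) and TM (-2.91). *Hsd17b3* and *Hsd3b6* fell in TM (-2.02 and -1.89). The enzymes that fell are named after their values were seen. Of the 8 genes 3 rose and 2 fell in TAT, where 14.4% of all genes rose. In TM 3 rose and 4 fell, where 27.8% of all genes rose. The sum of 9 genes of Sertoli cells, which support the germ cells, was 500.1 to 549 CPM in WT. It was 799 to 916 CPM in N, 1063 to 1319 CPM in TAT and 130 to 867 CPM in TM. Of the 9 genes 1 (11.1%), *Dhh*, rose in TAT and in TM, below the 14.4% and 27.8% of all genes. *Rhox5* fell by 3.03 in TM (adjusted p = 0.000140).

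Platelets also carry PECAM-1 and ESAM. Of 9 platelet genes 8 were in the table, and their sum was 48.1 to 75.0 CPM in WT, 41.8 to 54.5 CPM in N, 39.3 to 48.5 CPM in TAT and 47.3 to 124 CPM in TM. *Gp1bb* made up most of it in WT, at 49.4 ± 11.8 CPM, and fell to 17.4 ± 3.22 CPM in TM (adjusted p = 0.000340). Which cells the *Gp1bb* RNA came from was not tested, so the sum need not follow platelets. *Pf4* (platelet factor 4) was at 7.28 ± 4.50 CPM in WT and 7.38 ± 1.23 CPM in N, and rose to 56.6 ± 27.6 CPM in TM (log2 3.00 against WT, adjusted p = 0.000435). *Itga2b* rose by 2.03 from N to TM (adjusted p = 0.0408), and *Gp1ba*, *Gp9*, *Ppbp* and *Treml1* were at 0 in WT and *Clec1b*, *Gp9* and *Ppbp* in N. The part that these cells, and the loss of spermatid RNA from the total, had in the endothelial levels was not tested.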

How the data were processed

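Testis RNA of 3 *Inha* WT mice and of dissected regions of 3 *Inha* KO mice was sequenced in 17 libraries primed at the poly(A) tail. The authors deposited estimated counts (expected counts) per gene, made in the nf-core/rnaseq pipeline with STAR on GRCm38. According to the paper the counting was by Salmon, whereas the submitters' processing notes name featureCounts of Subread 2.0.1, with STAR 2.6.1d. The annotation release, the use of strand and the removal of duplicates by molecular identifiers are not given in the sources used here.

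Counts of all pieces of one region of an animal were added up and rounded, leaving 12 libraries. Before this step totals ran from 6349358 to 35454195 (WT), 24739160 to 32382283 (N), 17413667 to 25065616 (TAT) and 9139835 to 18995984 (TM). Genes were kept by filterByExpr and then tested with edgeR 4.0.16 under R 4.3.3 (TMM, quasi-likelihood test, Benjamini-Hochberg adjustment over all genes tested). Comparisons with WT used all 12 libraries. Comparisons between KO regions used the 9 KO libraries and had animal as a block, because the labels give the animal of each piece. Deviations from the region means correlated at a mean of 0.0933 within an animal (9 pairs) and at -0.0464 for different animals (18 pairs). No libraries were copies of one another. The script was tested on simulated counts.

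Alternatives were pieces as replicates, limma-voom (limma 3.58.1), DESeq2 1.42.0, other scalings, no filter, no fold threshold, 1 testis of animal 79813, fits of only the groups compared, no block, other prior counts and each animal left out. Leaving out 1 tumour was added after seeing the data. The genes, the marker lists and the rules for genes named were chosen with earlier results of these data known. Named genes were all 10, up to 4 of each list with the smallest p in TM against WT and any called against its list, neighbours within 200000 bases and the 5 nearest in pattern.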

Additional observations from a re-analysis of the deposited data

Results flagged for a closer look

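Of 30 groups of TAT, N or TM libraries of the 10 genes, 4 held a library that stood apart from the rest of its group by Dixon's test at the 95% level, a test that flags about 1 group in 20 by chance. In TAT these were *Plvap* at 7.262 CPM (the next library at 1.947), *Ctla2a* at 40.64 CPM (next 12.31) and *Tie1* at 5.744 CPM (next 2.025), all 3 in the library of KO animal 79853. In TM it was *Ctla2a* at 299 CPM (next 49.91) in tumour 1 of testis 2 of KO animal 79813. Without that tumour the log2 fold change of *Ctla2a* in TM was 5.73 against WT and 3.77 against N, still called, and 1.29 against TAT. No library stood apart for *Robo4*.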

How the results depend on the processing

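Counts of calls here are over the 9 members other than *Robo4*. The share of all genes called under each alternative was not taken, so the counts show only how stable the calls were. In TAT against N, where edgeR called 0, pieces as replicates and DESeq2 each called 5 members, and limma-voom and total library size each called 1. In TM against TAT (1 call) pieces as replicates, DESeq2, RLE size factors and only testis 1 of animal 79813 gave 2 members each, and limma-voom 3. In TAT against WT (7 calls) limma-voom gave 4 members. In TM against N (7 calls) only testis 1 of animal 79813 gave 4 members. Leaving out each animal in turn gave 0 members in N against WT, 3 to 7 in TAT against WT, 7 to 9 in TM against WT, 0 to 2 in TAT against N, 2 to 9 in TM against N and 0 to 3 in TM against TAT. Without the animal as a block, 0 members were called in TAT against N, 5 in TM against N and 1 in TM against TAT, and without tumour 1 of testis 2 of animal 79813, 9, 7 and 1 in the comparisons of TM with WT, N and TAT.

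The log2 fold change of *Robo4* in TM against N changed sign with pieces as replicates (0.21), limma-voom (0.0604) and total library size (0.0691), and ran from -0.62 to 0.56 with each animal left out. In TM against TAT it ran from -0.68 to 0.14. In that comparison *Icam2* was -0.11 with only testis 1 of animal 79813, and with each animal left out *Icam2* ran from -0.52 to 0.89, *Tek* from -0.47 to 1.49 (values without animals 79781 and 79813 were -0.47 and -0.28), *Pecam1* from -0.46 to 1.21, *Cdh5* from -0.29 to 1.302 and *Tie1* from -0.21 to 1.35. Of 769 tested values of single genes under an alternative, 685 kept their direction and their side of the threshold, 34 passed it newly, 41 no longer passed it and 9 changed sign, and none of those 9 had been called. *Robo4* minus the mean of the other 9 genes rose from WT to N by 4.47 on the log2 scale, by 5.39 with a prior count of 0.5 and by 3.70 with a prior count of 5, and depth in WT, where *Robo4* had 2 counts in all, sets its precision. The nearest 5 genes to *Robo4* shared 4 with those at a prior count of 0.5 and 5 with those at 5.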
